A study of Mus musculus with 33 samples.

Results

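The cells described here are CD8 T cells from 4 mouse tissues, taken from a niche-labelling experiment in which tumour cells were injected into the heart. A cell was counted as a member when it had 500 or more UMIs (unique molecular identifiers, each standing for 1 captured RNA molecule) and 200 or more genes, with no more than 15% of its UMIs mitochondrial. It also needed at least 1 UMI of Cd3e or Cd3d, at least 1 of Cd8a or Cd8b1, and none of Cd4 or Cd79a. This rule found 1294 members among 55366 kept cells, or 2.34%, in 31 of the 32 samples from intracardiac injection. The rule reads measured values, so the levels of those 6 genes describe how the members were chosen and are not results.

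The experiment used SAMENT, in which an enzyme brought in by tumour cells attaches biotin to cells close to them when a substrate is given. Lungs, livers, brains and leg bones (femurs and tibias) were collected after an overnight labelling of about 10 hours and digested with warm collagenase. Sorting then gave a biotin positive fraction, near the tumour cells, and a biotin negative fraction of the same kind of tissue. Each of the 8 groups (bone, brain, liver and lung, each positive and negative) held 4 samples numbered 1 to 4, and all had received the intracardiac injection and the substrate, so there was no tissue without tumour cells. The sources used here do not give the tumour line, the strain, the age or sex of the mice, or whether a number stands for 1 mouse.

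CD8 T cells recognise peptides on MHC class I and kill infected or transformed cells with granule proteins such as perforin and granzymes. Naive cells circulate through lymph nodes and carry the homing receptor Ccr7 and the transcription factors Lef1 and Tcf7. After activation they lose much of that programme and gain effector genes, among them Ccl5, Nkg7, Gzmk and Gzmb, and some settle in organs such as liver and lung as resident memory cells.

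Negative fractions held most members: 399 in lung, 262 in bone, 254 in brain and 161 in liver. Positive fractions held 47, 72, 74 and 25, and single samples held from 0 to 168 members. The median member had 3929 UMIs and 1322 genes. Samples held 94 to 3505 kept cells and 497940 to 44874529 UMIs in all, so positive fractions with few members carry the least certain values. Samples with the same number shared no cell barcode, and samples with different numbers shared 325 over 384 pairs. None of these were members on both sides, although 14 members had a barcode that also occurs in another sample.

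The samples numbered 3 and 4 stood apart from those numbered 1 and 2 in the state of their CD8 T cells, in every tissue. The files tie the numbers to the multiplexing: numbers 3 and 4 share 1 list of sample oligos, and numbers 1 and 2 each have a list of their own. The gap was looked at after the values had been seen. Gene tests of tissue and biotin are therefore given without and with the number as a block in the model, and shares of cells were also compared within numbers.

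The marker genes bore out the label. Trac, the constant region of the T cell receptor alpha chain, was detected in 73.6% of members and Trbc2, that of the beta chain, in 90.2%. In 969 cells chosen by the mirror rule for CD4 T cells the shares were 77.2% and 86.6%, at a median of 3356 UMIs. Genes of helper and regulatory cells were seen less often than in those CD4 cells: Cd40lg in 0.927% against 25.6%, Foxp3 in 0.541% against 7.22%, Icos in 19.6% against 47%, Ctla4 in 13.4% against 34.5% and Ikzf2 in 14% against 25.9%. The shares in this paragraph are pooled over the cells of all samples and were given no test. Genes of the natural killer and gamma-delta lists were seen in 0.155% (Trdv4 and Sox13) to 30.7% (Tyrobp) of members. Between these lay the receptor genes Ncr1 at 0.927%, Trdc at 1.31% and Klre1 at 10.9% (0.929% of CD4 cells), and Eomes at 24.6% (4.54%). Tyrobp, which myeloid cells also express, was seen in 25.8% of CD4 cells. Of the B cell genes, Ms4a1 was seen in 0.0773%, while the antibody genes Ighm and Igkc were seen in 33.1% and 28.7%, as in 33.2% and 28.8% of CD4 cells. No member had a UMI of Sall1 (microglia), Mobp (oligodendrocytes), Gfap (astrocytes), Krt14 (epithelium) or Gp9 (platelets), which allows a share of up to 0.232% (3 UMI-bearing cells of 1294); such limits and the intervals given later cover counting error alone.

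Neutrophil RNA was the main foreign signal. S100a8, which neutrophils hold in great amount, was detected in 92.5% of members and 93.1% of CD4 cells, and in 59.6% and 61.6% after each cell had been thinned to 1000 UMIs. The granulocytes themselves were gated on S100a8 and S100a9, so their share of 99.8% is set by that gate. Of the members, 58 (4.48%) carried a full granulocyte profile, and 94 (7.26%) were among the 5% of cells with the highest doublet score. Among 21862 granulocytes with a median of 5973 UMIs, 20.5% had a UMI of Cd3e or Cd3d but 0.503% one of Cd8a or Cd8b1, so the Cd8 genes carried most of the selection.

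Many members entered on few molecules. The median member had 3 UMIs of the Cd8 genes and 5 of the Cd3 genes, 310 members (24.0%) had exactly 1 Cd8 UMI and 77 exactly 1 Cd3 UMI. Just outside the rule lay 27 cells with exactly 1 Cd4 UMI and 11 with more, 57 with a Cd79a UMI (18 of them with exactly 1) and 229 with a Cd8 but no Cd3 UMI, 163 of them with a single Cd8 UMI. A far larger set of 6845 cells had Cd3 without Cd8, Cd4 or Cd79a.

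The 2 Cd8 genes encode the chains of the coreceptor, which is an alpha-beta pair on conventional CD8 T cells and an alpha-alpha pair on some unconventional lymphocytes. Both genes were detected in 703 members (54.3%), Cd8b1 alone in 397 (30.7%) and Cd8a alone in 194 (15%). The members with Cd8a alone had a median of 3499 UMIs against 3971.5 in the 1100 with Cd8b1, and they more often carried genes of natural killer and gamma-delta cells. Klrb1c, which encodes NK1.1, was seen in 19.1% against 2.91%, Klra7 in 13.4% against 2.0%, Fcer1g in 42.8% against 25.1%, and Tcrg-C1 in 7.73% against 1.00%. Ikzf2, the transcription factor Helios, was seen in 26.3% against 11.8%. Their effector genes were also more often seen (Ccl5 70.6% against 54.1%, Gzmb 17.5% against 9.82%) and their naive genes less often (Ccr7 20.1% against 39.9%, Lef1 35.1% against 51.0%). These shares describe a split within the rule and were given no test. Cells with Cd8a alone made up 11% to 19.9% of the members in the negative groups and 8% to 19.4% in the positive groups.

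In lung, CD8 T cells formed a smaller part of the biotin positive than of the negative fraction. In the lung negative samples they formed 5.25%, 1.59%, 4.77% and 3.51% of kept cells, and in the lung positive samples 0.846%, 0.295%, 0.822% and 0.590%. The groups did not overlap, and the positive sample was the lower in 4 of 4 numbers. The mean share was 0.638% ± 0.256 (SD, n = 4) against 3.78% ± 1.64 (SD, n = 4). An exact two-sided permutation test gave p = 0.0286, the smallest that 4 against 4 samples allow, and 0.114 after Benjamini-Hochberg adjustment over the 4 tissues, which does not pass. A test of cell numbers with edgeR's quasi-likelihood model put the log2 fold change at -2.55 ± 0.79 (SE, n = 4 against 4, adjusted p = 0.0137), and at -2.56 ± 0.71 with the number as a block (n = 4 against 4, adjusted p = 0.00605). The exact permutation test within numbers gave p = 0.125, the smallest that 4 pairs allow, and 0.25 after adjustment. With every kept cell thinned to 2000 UMIs the difference in mean share was -2.74 percentage points.

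Liver pointed the same way with more scatter. Its negative samples held 2.64%, 1.36%, 1.22% and 1.5% CD8 T cells, and its positive samples 1.47%, 0.0965%, 0.808% and 0%. The last is 0 of 94 kept cells, which allows a share of up to 3.19%. The positive sample was the lower in 4 of 4 numbers, but the ranges overlapped and the exact permutation test over 4 against 4 samples gave an adjusted p of 0.171.

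Bone and brain showed no clear difference. The positive sample was the lower in 3 of 4 numbers in bone and in 2 of 4 in brain. Bone negative samples ranged from 0.485% to 5.67% and bone positive samples from 0.645% to 2.39% (exact permutation test, n = 4 against 4, adjusted p = 0.838). In brain the negative samples held 2.59%, 1.24%, 3.37% and 5.11% and the positive samples 0.725%, 1.93%, 12.6% and 2.69% (exact permutation test, n = 4 against 4, adjusted p = 0.857). The highest of these, 39 of 310 cells with an exact 95% interval of 9.10% to 16.8%, sets the brain positive mean: it is 4.48% ± 5.46 (SD, n = 4). Whether the biotin difference itself differed between tissues was tested on the number-paired differences. The mean difference was -3.14 percentage points in lung against -0.229 in the other tissues, with an adjusted p of 0.218 by exact permutation over 4 against 12 differences.

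**Figure D1:**
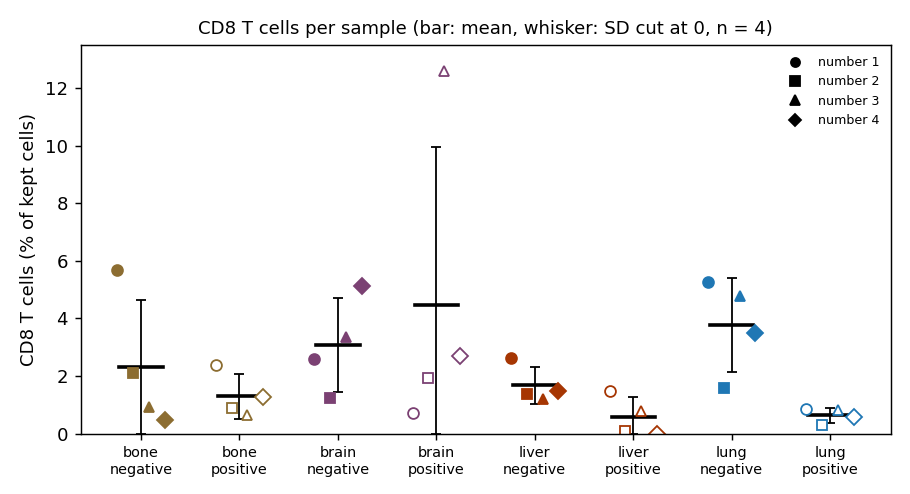
CD8 T cells as a percentage of kept cells in each sample (points), by tissue and biotin fraction, with the group mean (bar) and SD (whisker, cut at 0, n = 4). The 4 lung positive samples lie between 0.295% and 0.846%, below the 4 lung negative samples, and 1 brain positive sample stands at 12.6%.

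Across the negative fractions the CD8 share of kept cells did not separate the tissues. Means were 3.78% in lung, 3.08% in brain, 2.30% in bone and 1.68% in liver, and each tissue set against the other 3 gave an adjusted p of 0.355 or more by exact permutation over 4 against 12 samples. The share of T cells that were CD8 did separate bone and lung. Of the CD8 and CD4 cells together, CD8 cells made up 77.8%, 73.0%, 65.7% and 58.6% in bone and 44.6%, 46.0%, 43.1% and 42.7% in lung. Brain samples held 70.7%, 48.6%, 56.1% and 72.3% and liver samples 61.0%, 44.2%, 61.3% and 50%. The bone mean of 68.8% ± 8.39 (SD, n = 4) compared with 53.4% in the other tissues (exact permutation test, n = 4 against 12, adjusted p = 0.0495). The lung mean of 44.1% ± 1.51 (SD, n = 4) compared with 61.6% (exact permutation test, n = 4 against 12, adjusted p = 0.0330). Within numbers, bone was above the mean of the other tissues in 4 of 4 and lung below it in 4 of 4, and neither passed (exact permutation within numbers, n = 4 of each tissue, adjusted p = 0.0781 for both). Thinning to 2000 UMIs kept the differences at 16.1 and -17.7 percentage points, and neither passed then. The bone difference also lost its call with any of 11 of the 16 samples left out, and was 12.4 percentage points without bone sample 1. The lung difference lost its call without lung sample 3 (-17.2 percentage points) or 4 (-17.0).

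In brain, the T cells of the biotin positive fraction were mostly CD8. In 3 brain positive samples with at least 10 T cells the CD8 share was 92.9%, 90.7% and 81.8%, all above the 4 brain negative samples. The exact permutation test gave p = 0.0286 for 3 against 4 samples, the smallest it allows, and 0.114 after adjustment. Within numbers the positive sample was higher in 3 of 3, with a mean gap of 29.5 percentage points. By exact permutation this gave p = 0.25, the lowest that 3 pairs can give. Bone, liver and lung positive fractions had an adjusted p of 0.667 or more by exact permutation with n of 2 to 4 a side.

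Members fell on a naive side and an effector side, and the sample number went with the balance. A member was put on the effector side when, thinned to 1000 UMIs, it had at least 1 UMI of Ccl5, Nkg7, Gzmk, Gzmb or Gzma and none of a short set of naive genes that includes Ccr7 and Lef1, and on the naive side in the opposite case. In samples numbered 1 to 4, the effector side held 29.8%, 14.8%, 56.5% and 64.7% of bone negative members and 24.5%, 27.8%, 81.1% and 91.1% of brain negative members. It held 19.1%, 30.3%, 89.5% and 83.3% in liver negative and 16.6%, 12.5%, 74.3% and 71.0% in lung negative samples. In the 7 groups with both kinds of number, the samples numbered 3 or 4 lay above those numbered 1 or 2 without overlap. Pooled over tissues, the naive side held 38.0% and 38.9% of members in numbers 1 and 2, against 4.53% and 2.80% in numbers 3 and 4. The other members carried genes of both sides (21.1%, 26.9%, 10.7% and 11.2% in numbers 1 to 4) or of neither (17.6%, 13.1%, 5.35% and 4.05%), so these classes moved with the number as well.

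**Figure D2:**
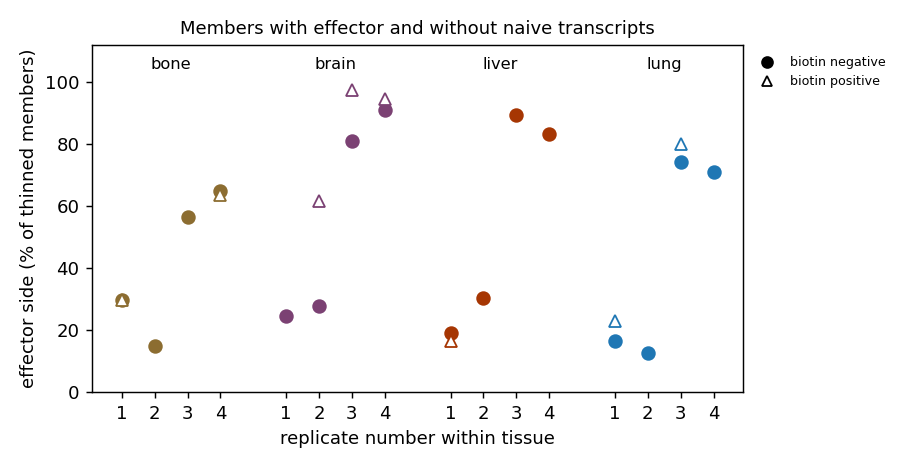
Percentage of CD8 T cells on the effector side after thinning to 1000 UMIs, by tissue and sample number, with a circle for biotin negative and a triangle for biotin positive samples. Numbers 1 and 2 lie between 12.5% and 30.3%, apart from a brain positive sample at 61.5%, and numbers 3 and 4 lie between 56.5% and 97.4%.

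No difference in the effector-side share by tissue or biotin passed a test. Effector-side shares averaged 56.1% in brain, 55.6% in liver, 43.6% in lung and 41.5% in bone negative samples (exact permutation tests, n = 4 against 12, adjusted p = 0.645 in each). Brain positive samples held 61.5%, 97.4% and 94.4%, a mean of 84.5% ± 19.9 (SD, n = 3) against 56.1% ± 34.9 (SD, n = 4) in brain negative samples. Its adjusted p was 0.70, as was that of lung, by exact permutation with n of 2 to 4 a side. Within numbers, which takes the gap out, brain negative samples lay above the mean of the other tissues in 4 of 4 numbers (mean difference 9.26 percentage points) and lung samples in 0 of 4 (-7.45). Liver lay above in 3 of 4 (8.50) and bone in 1 of 4 (-10.3). The exact permutation tests within numbers gave adjusted p-values of 0.234 to 0.238, with n = 4 of each tissue. Brain positive samples lay above the negative ones in 3 of 3 numbers, by a mean of 17.8 percentage points, and lung positive samples in 2 of 2, by 6.12. The smallest p that so few pairs allow is 0.25 in brain and 0.5 in lung, and both were at it by exact permutation. Bone positive samples lay above in 1 of 2 numbers (-0.522).

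CD4 T cells, pooled over all samples of a number, differed between the numbers in the same direction. Lung negative samples gave 512 of these 969 cells, and the shares were neither taken per sample nor tested. The naive-side share of the CD4 cells was 49.9%, 44.2%, 12.9% and 12% in numbers 1 to 4, and their effector-side share 7.40%, 11.6%, 32.1% and 20.5%. The median member had 4462, 3794, 2948 and 3652 UMIs and 3.76%, 2.47%, 1.57% and 3.0% mitochondrial UMIs in numbers 1 to 4, and the part of these in the gap was not tested. Neutrophil-list RNA had medians of 42564, 6162, 15787 and 107465 CPM (counts scaled to 1000000 of the members' summed UMIs). Ccl5 was seen in 0.467% to 2.0% of thinned granulocytes of any number, and in 22%, 26.3%, 85.2% and 85.7% of thinned members.

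A term for the number, added to the edgeR model after the gap had been seen, passed an FDR of 0.05 for 471 of 3179 genes (14.8%). Of these, 140 (4.4% of genes tested) were higher in both numbers 3 and 4 than in 1 and 2, and 126 (3.96%) were lower. The remaining 205 followed another order, and 10 of the 471 were mitochondrial genes. Among all 3179 genes tested, whether they passed or not, 636 had the higher order and 728 the lower order. Effector genes rose: 17 of 23 tested genes were higher and none lower, with a median log2 gap of 1.5 against -0.01 over all genes. The gap is the mean log2 level of numbers 3 and 4 minus that of numbers 1 and 2, fitted beside the groups. The adjusted p-values printed with gaps are those of the number term. That term tests for any difference among the 4 numbers, and the gap itself was not tested. RNA of other cells also moved with the number. Of the neutrophil list 7 of 12 tested genes passed, all in another order, with a median gap of 1.35. Of the monocyte or macrophage list 5 of 9 passed in another order (-1.12), and of the alveolar macrophage list 1 of 7 (-1.48). Higher in both numbers 3 and 4, as the effector genes were, were 2 of 7 tested genes of the natural killer list (median gap 0.36), 1 of 3 of the CD4 list (0.65) and the 1 tested gene of the gamma-delta or NKT list (1.99). Lower, as the naive genes were, were 1 of 4 of the plasmacytoid dendritic cell list (-0.91) and the 1 tested platelet gene (-3.14). The 3 tested B cell genes all passed, 1 higher, 1 lower and 1 in another order. Their part in the gap of the CD8 genes was not tested.

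Ccl5, a chemokine of effector and memory CD8 cells, showed it in each tissue. Bone negative samples 1 to 4 held 2651, 2906, 13421 and 14581 CPM and brain negative samples 1166, 1804, 16533 and 12871 CPM. Liver negative samples held 2131, 4305, 22058 and 24138 CPM and lung negative samples 2837, 939.7, 20078 and 17564 CPM. The 2 higher values in each tissue were those of numbers 3 and 4, and the number term gave a log2 gap of 2.70 (adjusted p = 3.91e-07).

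Gzmk encodes the granzyme typical of memory-like effector cells. Its levels were 7.02, 20.5, 145 and 285 CPM in bone, 16.6, 23.3, 189 and 387 in liver, 34.9, 0, 295 and 367 in lung and 22.2, 83.6, 222 and 376 in brain negative samples, again without overlap between the number sets (log2 gap of 3.19, adjusted p = 2.89e-06). Eomes, a T-box factor of effector and memory cells, had a log2 gap of 2.42 (adjusted p = 1.86e-05). Nkg7, a granule membrane protein, had a log2 gap of 1.5 (adjusted p = 2.89e-06), and the perforin gene Prf1 a log2 gap of 1.5 (adjusted p = 0.0162). Fasl, the death ligand, had a log2 gap of 2.14 (adjusted p = 0.000129).

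Of the list of homing and cytokine receptors, 5 of 17 tested genes were higher in both numbers 3 and 4, 4 lower and 1 in another order, with a median gap of 0.39. Cxcr3, which guides T cells to inflamed tissue, had a log2 gap of 2.44 (adjusted p = 0.000272) and was higher in numbers 3 and 4 in 7 of 7 groups. That position was held by 23 of the 3179 genes tested. Itgb1, an integrin chain, had a log2 gap of 1.21 (adjusted p = 0.000449) and Il2rb, a subunit of the IL-2 and IL-15 receptors, a log2 gap of 0.90 (adjusted p = 0.00268). Among genes that are no receptors, Ifng, the interferon gamma gene, had a log2 gap of 2.64 (adjusted p = 0.000569) and was higher in 6 of 7 groups. Prdm1, the repressor Blimp-1, had a log2 gap of 2.03 (adjusted p = 0.00325).

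Naive genes fell together, with 13 of 16 tested lower, none higher and a median gap of -1.21. Lef1 held 358, 457, 223 and 45.0 CPM in bone, 384, 521, 63.1 and 57.4 in liver, 471, 411, 193 and 121 in lung and 260.5, 334, 121 and 94.3 in brain negative samples numbered 1 to 4. Each tissue had its 2 lower values in numbers 3 and 4 (log2 gap of -1.79, adjusted p = 1.14e-05). Satb1, a chromatin organiser of naive T cells, did the same at 351, 508, 145 and 105 CPM in bone and 382, 513, 47.3 and 28.7 in liver (log2 gap of -1.82, adjusted p = 1.86e-05). Ccr7 had a log2 gap of -1.89 (adjusted p = 0.00361) and S1pr1, the receptor for exit from lymph nodes, a log2 gap of -1.09 (adjusted p = 0.00588). The gap was larger for Ccr9, a receptor that directs T cells to the gut (log2 gap of -3.74, adjusted p = 0.000207). Ccr9 also stands in the plasmacytoid dendritic cell list, which summed to a median of 304.5 CPM in number 1 and 167 to 190 CPM in the other numbers, and the part of those cells in its value was not tested. Tcf7 fell less (log2 gap of -0.76, adjusted p = 0.00376).

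**Figure D3:**
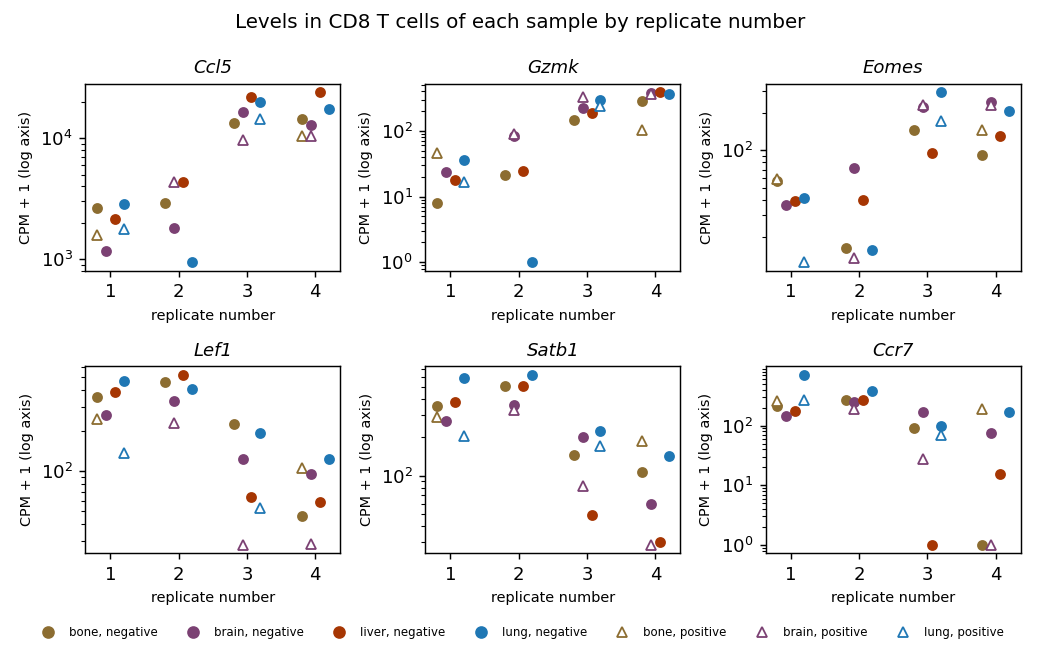
CPM + 1 (log axis) of 6 genes in the summed CD8 T cells of each sample against the sample number, coloured by tissue, with circles for biotin negative and triangles for positive samples. Ccl5, Gzmk and Eomes are higher in numbers 3 and 4 than in 1 and 2 in 7 of 7 groups, Lef1 and Satb1 lower in 7 of 7, and Ccr7 lower in 6. Of all 3179 genes tested, 23 were higher in 7 of 7 groups and 14 lower. The positive groups hold 2 or 3 samples each.

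Some other genes of T cell state did not pass. Cd44, which marks antigen-experienced cells, had a log2 gap of -0.03 (adjusted p = 0.988). Il7r and Klf2, which naive and resting T cells express, had a log2 gap of 0.14 (adjusted p = 0.216) and a log2 gap of -0.24 (adjusted p = 0.623). Gzma had a log2 gap of 1.14 (adjusted p = 0.298) and the division gene Mki67 a log2 gap of 0.06 (adjusted p = 0.405). Gzmb passed the test but in another order of the numbers. Among the checkpoint genes, 2 of 10 tested were higher, with Ctla4 at a log2 gap of 1.35 (adjusted p = 0.0172), and Lag3 did not pass (log2 gap of 2.06, adjusted p = 0.0692). The resident list had 4 of 12 genes higher and 2 in another order, with a median gap of 0.95. The T cell receptor signalling list had 9 of 21 higher (0.51), and the memory list 6 of 21 higher and 5 in another order (0.49). The early response list had 4 of 26 higher, 1 lower and 9 in another order (0.03), and the cell cycle list 1 of 11 lower (0.70). Pdcd1, Havcr2, Tigit, Klrg1, Itgae, Tbx21 and Trdc were too low to be tested.

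Other settings changed the count of genes. The biotin negative samples alone gave 312 genes, 249 of them shared with the 471. Without granulocyte-like members 497 genes passed, and 391 without members that also carried macrophage RNA and with the minimum lowered to 5 members a sample. Asking for at least 20 members a sample left 175 genes, 138 of them shared. Between 351 and 470 genes passed with each sample left out in turn.

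The next comparisons set the negative fraction of each tissue against those of the other 3, so all 4 share samples. Bone CD8 T cells had less RNA of early response genes, the genes switched on within minutes of a stimulus. All tissues were digested with warm collagenase before sorting, and the part of that handling in these levels was not tested. Of the 26 early genes tested, 26 had a lower level in bone, with a median log2 fold change of -0.86 against -0.00 over all genes. No gene passed without the number block by edgeR's quasi-likelihood test (0 of 3179, 0%), while 167 (5.25%) lay at unadjusted p-values under 0.05 and DESeq2 called 3. With the block 5 genes passed (0.157%), all lower and all of the early list: Fos, Junb, Nr4a1, Btg2 and Hspa1b.

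Fos, a subunit of the AP-1 transcription factor, held 195, 169, 100.5 and 150.2 CPM in bone, 356, 831, 441 and 100.5 in liver, 328, 602, 409 and 273 in lung and 943, 1565, 1329.9 and 624 in brain. Bone was low and brain high, with 1 liver sample at the bone level. With the block, bone had a log2 fold change of -1.77 ± 0.30 (SE, adjusted p = 0.0114). Junb, the other AP-1 subunit in the set, held 479, 703, 669.9 and 541 CPM in bone and 1513, 1791, 1997 and 1604 in lung, with 467, 1624, 2659.8 and 2009 in brain and 645, 1585, 2144 and 732 in liver (log2 fold change -1.28, SE 0.25, adjusted p = 0.0344). The lowest brain and the lowest liver sample overlapped bone.

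Nr4a1, an orphan nuclear receptor induced by T cell receptor signals, held 52.6, 61.6, 78.2 and 0 CPM in bone, 87.8, 148, 110.4 and 71.8 in liver, 201, 242, 226 and 53.7 in lung and 172, 275, 252 and 92.6 in brain (log2 fold change -1.62, SE 0.25, adjusted p = 0.00844). Its lowest liver and lung samples lay within the bone range. Btg2, which restrains cell division, held 283, 210.5, 189.8 and 210.2 CPM in bone, 586, 357, 457 and 316 in liver, 611, 338, 448 and 566 in lung and 353, 776, 826 and 639.8 in brain (log2 fold change -1.17, SE 0.23, adjusted p = 0.0345). It was the 1 gene of the 5 whose bone samples all lay below all others, and among all genes tested 5 (0.157%) had bone samples that did not overlap the rest. Hspa1b, an inducible heat shock protein, had a mean of 11.6 ± 4.72 (SD, n = 4) CPM in bone against 143 ± 165 (SD, n = 12) (log2 fold change -3.07, SE 0.56, adjusted p = 0.0212). The members of bone samples 3 and 4 summed to 102881 and 81855 UMIs, so such a level rests on very few molecules there. The near-identical copy Hspa1a can share reads of Hspa1b, so the split between these copies is uncertain.

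Neutrophil RNA moved with bone: 12 of 12 neutrophil genes had a higher level there, with a median log2 fold change of 1.80, although none passed. With granulocyte-like members left out and the block kept, 8 genes passed in bone, and these 5 were among them, with Fos at -1.83. Dusp1 (-2.13, adjusted p = 0.0329) and Ier2 (-1.08, adjusted p = 0.0321), both early genes, were then lower too, and Ly6c2, a surface protein of memory cells, higher (0.98, adjusted p = 0.0379). The part of the remaining neutrophil RNA in these values was not tested.

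The promoters of these 5 genes are shown because the genes moved together. Each run is the 250 bases before the RefSeq start on the gene's strand, build GRCm38.p6, 5′ to 3′. Capitals mark TGACG on either strand (CGTCA in the run as printed), the core of the cyclic AMP response element, or GAANNTTC, the core of the heat shock element.
Fos, chr12:85473640-85473889, plus strand: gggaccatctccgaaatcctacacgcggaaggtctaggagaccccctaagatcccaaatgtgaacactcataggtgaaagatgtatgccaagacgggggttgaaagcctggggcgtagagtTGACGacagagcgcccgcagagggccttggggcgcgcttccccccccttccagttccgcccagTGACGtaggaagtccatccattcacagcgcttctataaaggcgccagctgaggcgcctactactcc
Junb, chr8:84978749-84978998, minus strand: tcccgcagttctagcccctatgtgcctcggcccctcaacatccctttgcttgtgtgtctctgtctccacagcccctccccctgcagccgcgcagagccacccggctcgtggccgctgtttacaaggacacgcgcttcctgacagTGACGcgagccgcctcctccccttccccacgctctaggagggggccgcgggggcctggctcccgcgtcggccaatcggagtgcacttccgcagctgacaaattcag
Nr4a1, chr15:101266596-101266845, plus strand: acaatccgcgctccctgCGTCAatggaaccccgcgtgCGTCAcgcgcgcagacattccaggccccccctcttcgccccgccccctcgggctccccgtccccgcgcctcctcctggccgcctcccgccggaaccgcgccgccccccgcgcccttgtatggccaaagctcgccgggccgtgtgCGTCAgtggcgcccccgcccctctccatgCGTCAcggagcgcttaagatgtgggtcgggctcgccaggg
Btg2, chr1:134079156-134079405, minus strand: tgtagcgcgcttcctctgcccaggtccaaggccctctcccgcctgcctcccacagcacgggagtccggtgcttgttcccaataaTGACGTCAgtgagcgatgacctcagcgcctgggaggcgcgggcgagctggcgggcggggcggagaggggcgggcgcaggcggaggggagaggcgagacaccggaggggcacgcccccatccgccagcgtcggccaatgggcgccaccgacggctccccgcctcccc
Hspa1b, chr17:34959239-34959488, minus strand: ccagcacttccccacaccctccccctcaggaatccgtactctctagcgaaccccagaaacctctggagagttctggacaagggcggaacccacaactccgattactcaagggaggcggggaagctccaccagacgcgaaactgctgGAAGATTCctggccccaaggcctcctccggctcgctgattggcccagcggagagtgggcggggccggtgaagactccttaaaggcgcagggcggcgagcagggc

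TGACG occurred 2 times before Fos, 1 time before Junb, 4 times before Nr4a1 and 2 times, overlapping, before Btg2. It occurred in none of the 250 bases before Hspa1b, which held GAANNTTC once. Of 32851 promoters of this length, 17.8% held TGACG and 6.69% held GAANNTTC. These are matches of letters and say nothing on which factor was bound.

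**Figure D4:**
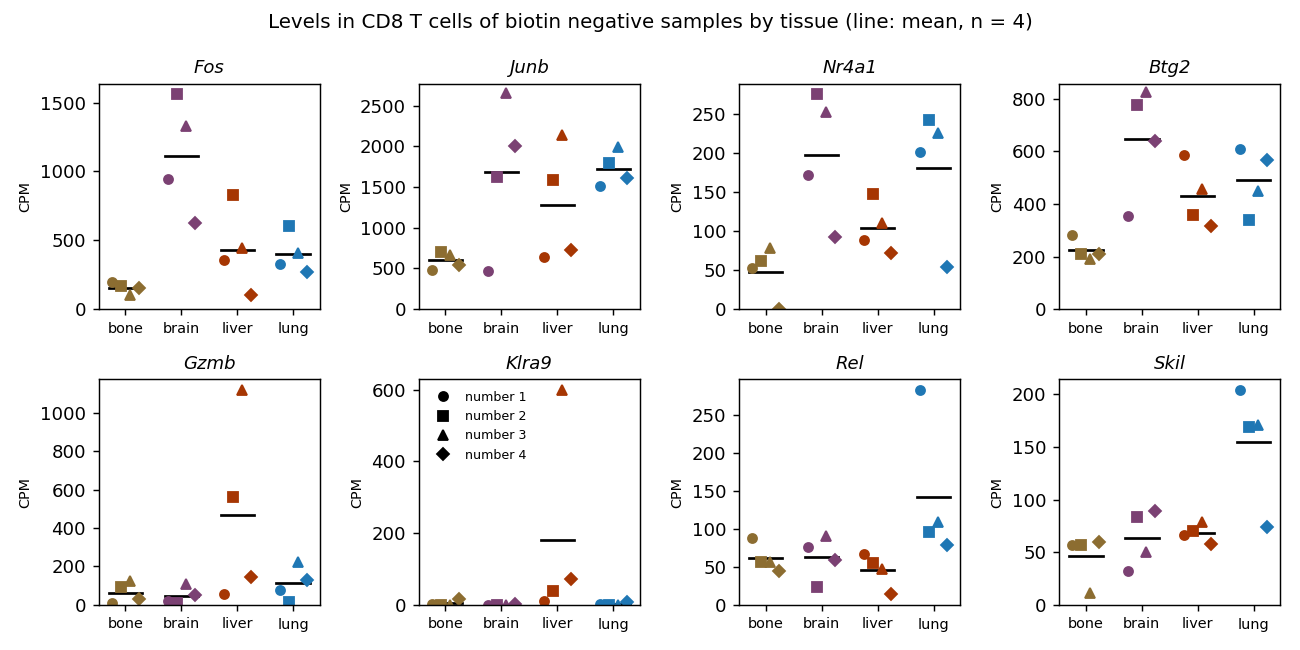
CPM of 8 genes in the summed CD8 T cells of each biotin negative sample by tissue (points), with the mean of 4 samples as a line. Fos, Junb, Nr4a1 and Btg2 have their lowest mean in bone, Gzmb and Klra9 have their highest samples in liver, and Rel and Skil have theirs in lung.

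Brain CD8 T cells had higher levels of early response genes. The part of the warm digestion in these levels was not tested either. Of the 26 tested, 8 passed as higher with the block, where 20 of 3179 genes (0.629%) did, and 24 had a higher level (median log2 fold change 0.65 against 0.03 over all genes). Of the 5 genes named for bone, Fos, Nr4a1 and Hspa1b passed in brain with the block, and Junb and Btg2 did not. Among the 8 were Fos (log2 fold change 1.89, SE 0.23, adjusted p = 0.000101), Atf3 (log2 fold change 2.61, SE 0.52, adjusted p = 0.0142) and Hspa1a (log2 fold change 2.99, SE 0.57, adjusted p = 0.0124). Fos also passed without it (log2 fold change 1.87, SE 0.37, adjusted p = 0.0267), but not with any of 11 samples left out in turn (1.65, adjusted p = 0.224, without brain sample 2), at 1116 ± 416 (SD, n = 4) CPM against 329.7 ± 219 (SD, n = 12). In all, 6 genes passed in brain without the block (0.189%) and 21 with it (0.661%). The 6 became 11 without brain positive sample 2 or 4, and without brain negative sample 1 there were 4, 1 of them from the 6. Klrd1, the CD94 chain of killer lectin receptors, was the 1 gene lower, at 202 ± 99.3 (SD, n = 4) CPM against 387 ± 147 (SD, n = 12) (log2 fold change -0.91, SE 0.20, adjusted p = 0.0338). It did not pass once granulocyte-like members were left out with the block kept (-0.80, adjusted p = 0.0544).

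The other genes of the brain set belong mostly to other cells. Ctsg and Elane encode granule proteases of granulocyte precursors. Ctsg held 562, 0, 40.3 and 232 CPM and Elane 883, 0, 60.5 and 497 CPM in the 4 brain samples, so both were at 0 in 1 sample and high in 2 others. Without the block Ctsg had a log2 fold change of 4.24 ± 0.58 (SE, adjusted p = 0.000793) and Elane a log2 fold change of 3.95 ± 0.68 (SE, adjusted p = 0.00692). Elane lost its call without brain sample 1 (3.11, adjusted p = 0.0721). The class II gene H2-Eb1 stood at 19.1, 2114, 131 and 281 CPM, with 1 brain sample far above the rest, and its log2 fold change without the block was 3.15 with all members. It was -1.81 without those that carried macrophage RNA and at a minimum of 5 members a sample. The complement genes C1qa, C1qb and C1qc, which macrophages and microglia make, passed as higher with the block (3 of 9 tested genes of the monocyte or macrophage list, median 1.28). They passed again, at 3.66, 3.51 and 3.73, with granulocyte-like members left out. The part of macrophage RNA in the early gene values was not tested. With granulocyte-like members left out and the block kept, 22 genes passed in brain, 18 of them from the 21.

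With the number as a block, liver CD8 T cells had higher levels of a granzyme and a killer receptor gene. Gzmb, a protease that triggers death of the target cell, held 57.0, 559, 1119 and 144 CPM in liver, 79.9, 14.7, 226 and 129.8 in lung, 9.36, 92.4, 123 and 30.03 in bone and 19.1, 11.9, 111 and 51.5 in brain. The 2 highest liver samples lay above all others, and the other 2 within the range of the other tissues. No gene passed without the block by edgeR (0 of 3179, 0%; 120, or 3.77%, at an unadjusted p under 0.05; 2 by DESeq2). With it 3 did (0.0944%): Gzmb (log2 fold change 2.33, SE 0.41, adjusted p = 0.0139), Klra9 (log2 fold change 5.39, SE 0.86, adjusted p = 0.0108) and Hspa1b (log2 fold change 2.98, SE 0.36, adjusted p = 0.000175).

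Klra9 encodes a Ly49 receptor for MHC class I, and it rested largely on 1 sample: the liver values were 9.49, 38.9, 599 and 71.8 CPM. Ly49 genes resemble one another, so reads may be split among them. Gzma stood at 87.8, 544, 1198 and 976 CPM in liver, 359, 22, 114 and 204 in lung, 76.0, 92.4, 22.3 and 150.2 in bone and 3.18, 35.8, 10.1 and 87.5 in brain. It passed, as did Itga1, the CD49a integrin of resident cells, once granulocyte-like members were left out with the block kept: Gzma at 2.91 (adjusted p = 0.0121) and Itga1 at 2.49 (adjusted p = 0.0202). Cd7 did too (1.55, adjusted p = 0.0202). In that setting 8 genes passed, including the 3 above. In the natural killer list 6 of 7 tested genes had a positive log2 fold change in liver without the block (median 1.68), none of which passed, and its part in these values was not tested.

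In lung 12 genes passed with the block (0.377%), 9 higher and 3 lower; without it none did by edgeR (0 of 3179, 0%; 251, or 7.9%, at an unadjusted p under 0.05; 0 by DESeq2). Rel, the NF-kappa-B subunit used in T cell activation, held 283, 95.4, 108 and 78.3 CPM in lung, 66.4, 54.4, 47.3 and 14.4 in liver, 87.7, 56.5, 55.8 and 45.0 in bone and 76.2, 23.9, 90.7 and 58.3 in brain (log2 fold change 1.25, SE 0.22, adjusted p = 0.0237). Its mean rested in part on 1 lung sample. Skil, an inhibitor of SMAD signalling, held 205, 169, 171 and 73.8 CPM in lung, 66.4, 69.9, 78.8 and 57.4 in liver, 57.3, 56.5, 11.2 and 60.1 in bone and 31.8, 83.6, 50.4 and 89.2 in brain (log2 fold change 1.34, SE 0.26, adjusted p = 0.0304).

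Tgif1, another repressor in TGF-beta signalling, had 116 ± 33.7 (SD, n = 4) CPM in lung against 44.1 ± 29.5 (SD, n = 12) (log2 fold change 1.59, SE 0.28, adjusted p = 0.0237). Fosl2, an AP-1 subunit, had a log2 fold change of 1.47 ± 0.31 (SE, adjusted p = 0.0343) and Odc1, the first enzyme of polyamine synthesis, a log2 fold change of 1.46 ± 0.30 (SE, adjusted p = 0.0331). Icos, a costimulatory receptor, held 128, 36.7, 138 and 145 CPM in lung (log2 fold change 1.46, SE 0.29, adjusted p = 0.0317). It stands in the CD4 T cell list, which summed to 88.1 to 712 CPM in lung, 121 to 342 in liver, 69.9 to 212 in brain and 128 to 210 in bone negative members, and the part of CD4 cell RNA in its value was not tested. The 3 lower genes, Cd177, Mgst1 and Cebpe, are known from granulocytes, and 0 of 12 genes of the neutrophil list were higher in lung (median -1.91). With granulocyte-like members left out and the block kept, 15 genes passed in lung and 8 of the 12 were among them.

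Between biotin positive and negative members in lung many genes differed, and macrophage genes led them. By edgeR 307 of 3179 genes passed (9.66%), 206 higher (6.48%) and 101 lower (3.18%). With the number as a block 462 passed (14.5%), 281 higher (8.84%) and 181 lower (5.69%), and 305 of the 307 were among them. The split between higher and lower genes moved with the setting: RLE scaling gave 220 higher and 59 lower, and without lung positive sample 3 there were 218 higher and 24 lower. Lpl, lipoprotein lipase, stood at 982 and 652 CPM in the 2 positive samples with at least 10 members and 3.33, 44.0, 3.01 and 0 CPM in the 4 negative samples (log2 fold change 6.87, SE 0.86, adjusted p = 5.61e-05). Mrc1, the mannose receptor, stood at 633 and 498 against 3.33, 36.7, 9.02 and 0 CPM (log2 fold change 6.20, SE 1.07, adjusted p = 0.00101). Axl and Mertk, receptors for clearing dead cells, had a log2 fold change of 5.89 ± 1.05 (SE, adjusted p = 0.00125) and a log2 fold change of 6.5 ± 1.33 (SE, adjusted p = 0.00455). The 7 tested alveolar macrophage markers all rose, with a median log2 fold change of 6.31. The positive and negative samples did not overlap for Lpl, Mrc1, Axl and Mertk, as for 33.4% of all genes tested.

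T cell genes fell at the same time. Of 21 tested genes of the receptor signalling list 6 fell, none had a higher level, and the median was -1.13. Trac was at 168 ± 4.69 (SD, n = 2) CPM against 452 ± 177 (SD, n = 4) (log2 fold change -1.44, SE 0.40, adjusted p = 0.0275), and Lat, the adaptor that links the receptor to its signals, had a log2 fold change of -1.59 ± 0.40 (SE, adjusted p = 0.0139). The interferon-induced GTPase Ifi47 fell from 98.5 ± 25.0 (SD, n = 4) to 20.1 ± 4.14 (SD, n = 2) CPM (log2 fold change -2.19, SE 0.48, adjusted p = 0.00570). Tap1, the peptide transporter for MHC class I, fell too (log2 fold change -1.74, SE 0.47, adjusted p = 0.0212). Cd44 rose from 137 ± 23.9 (SD, n = 4) to 787 ± 118 (SD, n = 2) CPM (log2 fold change 2.54, SE 0.34, adjusted p = 6.71e-05). Of 23 effector genes tested 2 rose, but not Ccl5 (log2 fold change -0.36, SE 1.19, adjusted p = 0.925) or Gzmk (log2 fold change -0.99, SE 1.56, adjusted p = 0.784).

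Many lung positive members carried macrophage RNA cell by cell. Of 47 members in the lung positive samples, 23 (48.9%) had at least 20 UMIs of macrophage genes, against 8 of 399 (2.01%) in the negative samples. Most of the 23 came from lung positive sample 1, which held 26 members, and none from sample 4, which held 4. In the other groups the share was 6.11% to 24.0%. Such lung positive members had a median of 11081 UMIs against 3924 in the others, and 2 of all 47 lung positive members were among the 5% of cells with the highest doublet score. Over all groups, 43.4% of the 106 members with macrophage RNA were. In the CD4 gate 10 of 45 lung positive and 12 of 512 lung negative cells met the same limit. The alveolar macrophage list summed to 4754 to 9642 CPM in the positive samples against 206 to 1299 in the negative ones. Other lists were higher too. The neutrophil list summed to 31925 to 61884 against 8119 to 15571 CPM and the B cell list to 927 to 1481 against 277 to 602. The natural killer list summed to 2762 to 3038 against 1029 to 1345 CPM and the tumour epithelial list to 120 to 184 against 6.66 to 13.4. The CD4 list overlapped (88.2 to 154 against 88.1 to 712 CPM). Their part in the gene values was not tested. The CD8 T cell list summed to 1780 to 2677 against 2834 to 6183 CPM.

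**Figure D5:**
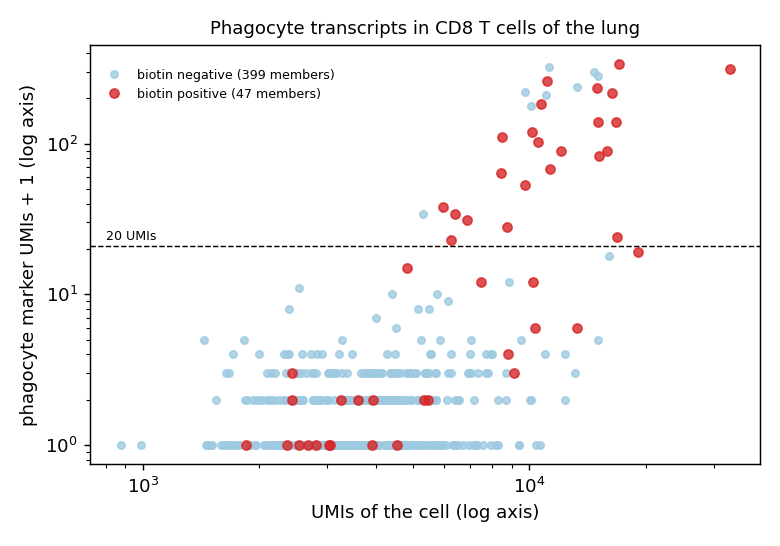
UMIs of macrophage genes plus 1 against all UMIs of each lung CD8 T cell (both log axes), for 399 biotin negative and 47 positive members, with a dashed line at 20 UMIs. Of the positive members 23 lie at or above the line, mostly at high UMI counts, and 8 of the negative ones.

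Without those members, and with samples of at least 5 members, 34 of 2342 genes passed in lung, 30 higher and 4 lower, and 21 of them were among the 307. The 4 lower genes include Cd8a, which the selection rule used and which is therefore no result. Cd44 was still higher at 381 against 122 CPM (log2 fold change 2.13, adjusted p = 0.00962), and Ifi47 was at 0 against 108 CPM in the sums. Also higher were Cxcl3, a chemokine of myeloid cells (5.34, adjusted p = 7.26e-06), Fn1, fibronectin (4.40, adjusted p = 0.0296), and Lcn2 and Ngp, neutrophil granule genes, at 2.89 and 3.8. Cited2 (-3.93) and Pik3cd (-3.56), a lipid kinase subunit of lymphocytes, were lower. The largest rises were those of Cldn5 (7.06), an endothelial gene, Thbs1 (6.70) and Epas1 (6.61). With all members, the endothelial list summed to 68.6 and 591 CPM in the 2 lung positive samples against 9.02 to 80.8 in the negative ones, and its part in these values was not tested. The fit without macrophage-carrying members has 2 positive samples with few members. Positive members with up to 18 UMIs of macrophage genes stayed in it. With all members, the count of 307 falls to 22 (20 higher, 2 lower) without lung positive sample 1, to 191 without lung negative sample 4 and to 202 without lung negative sample 1. Mertk (adjusted p = 0.111), Ifi47 (0.173) and Tap1 (0.50) are among those that lose their call without lung positive sample 1. That fit has 1 lung positive sample, which is assumed to vary like the samples of the other groups.

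Bone and brain gave few calls by biotin. No gene passed in bone without the block (edgeR, 0 of 3179, 0%; 114, or 3.59%, at an unadjusted p under 0.05; 1 by DESeq2), and 4 did with it (0.126%), all higher. They were the macrophage gene C1qb and Vcam1, Lpl and Nr4a1, the last at 236 and 62.2 CPM in the 2 positive against 52.6, 61.6, 78.2 and 0 in the 4 negative samples (log2 fold change 2.17, SE 0.36, adjusted p = 0.0133). Lpl turned on 1 sample: without the block its log2 fold change was 3.61 without bone positive sample 4 and -4.74 without bone positive sample 1. Macrophage RNA at the limit used for lung was found in 13 of 72 bone positive members (18.1%) against 16 of 262 negative ones (6.11%), and in brain in 10 of 74 against 17 of 254, and its part in these calls was not tested. In brain none passed without the block (0 of 3179, 0%; 168, or 5.28%, at an unadjusted p under 0.05; 1 by DESeq2) and Mrc1 did with it (0.0315%), at 921, 98.9 and 0 CPM in the positive samples, so from 1 sample mainly. Brain positive and negative samples did not overlap for 171 genes (5.38%), and bone samples for 406 (12.8%). Liver positive fractions had 1 sample with at least 10 members. The rule of 2 or more such samples a group therefore left out the gene test by biotin in liver. At 5 members a sample, without members that carried macrophage RNA, edgeR called 0 of 2342 genes (153 at an unadjusted p under 0.05).

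The mean biotin difference over bone, brain and lung passed for 40 genes (1.26%), 39 higher and 1 lower. With the block it passed for 183 (5.76%), 108 higher (3.4%) and 75 lower (2.36%). None passed without bone positive sample 1. The count of 40 was 7 without brain positive sample 2, 8 without lung positive sample 1, 20 without brain negative sample 4, 21 without bone negative sample 1 and 23 without lung negative sample 3. It was 67 without brain negative sample 2 and 66 without brain positive sample 3. Set against the other tissues, the lung difference was more positive for 7 genes (0.22%) and more negative for none. With the block 98 passed (3.08%), 51 more positive (1.6%) and 47 more negative (1.48%). The 7 became 2 without lung positive sample 1, 4 without brain positive sample 3 or lung negative sample 4, and 11 to 15 without bone positive sample 1, lung positive sample 3, brain positive sample 4 or liver negative sample 4. They included Ctsd, a lysosomal protease (log2 fold change 2.64, SE 0.41, adjusted p = 0.00289), Abcg1, a cholesterol exporter of macrophages (log2 fold change 3.09, SE 0.62, adjusted p = 0.0265), and Cd44 (log2 fold change 2.28, SE 0.44, adjusted p = 0.0195). None of these 3 passed without lung positive sample 1, Abcg1 lost its call with any of 8 of the 23 samples left out and Cd44 with any of 4. Without members that carried macrophage RNA and at 5 members a sample 5 genes passed, none of them from the 7.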

How the data were processed

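Single-cell 3′ RNA libraries of mouse tissue were multiplexed with CellPlex oligos. The authors deposited whole-number UMI counts per gene and cell, separated by sample, for 32285 genes; they were made with cellranger 6.1.2 per the file headers, and with Cell Ranger, Seurat and build mm10 per the submitters' processing notes. How introns were counted is not given in the sources used here. A pooled sample of another injection route was not used, and no doublets were removed (Scrublet's top 5% were left out as an alternative).

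Counts were summed over the members of each sample with at least 10 members, in groups with 2 or more such samples (23 samples; 1 liver positive sample was left out) and tested with edgeR 4.0.16 (R 4.3.3; quasi-likelihood, TMM, filterByExpr, all 7 groups in 1 fit, Benjamini-Hochberg FDR under 0.05 over 3179 genes), with DESeq2 1.42.0 as an alternative. Shares were compared by two-sided exact permutation tests in Python 3.11.15 with scipy 1.17.1. On simulated counts the lung tissue test recovered 43 of 100 genes changed 2-fold and 92 of 100 changed 4-fold, with 5 unchanged genes called, among 3179 genes. Those counts held no difference by number and none between the other groups, so these rates do not give the power on the real counts.

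Same-numbered samples deviated together. Over the negative samples the correlations of 24 same-number pairs were 0.0942 to 0.384 (median 0.241), 23 of 24 over 0.1, against a median of -0.107 over 72 other pairs. The labels do not say what a number is. Same-numbered samples share no cell barcode, and the oligo lists separate numbers 1, 2 and 3 with 4. The fit with the number as a block is printed where it changes a call, and that pairing rests on these values rather than on the labels. Nothing in the labels says that samples of a group came from separate animals, so p-values measure only the spread between these samples, which may be technical.

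Genes were named when they passed at 50 CPM or more (up to 12 a direction), without overlap of the groups in fits without the block and with or without overlap in the block fits, a condition dropped there after values were seen, or when they stood in a fixed list of naive, effector, memory and resident genes. Genes of the block fits without granulocyte-like members, of the number term, of the promoter motifs and of the comparison without macrophage-carrying members were picked after their values were seen. Some genes of the lists, 1 of them in the naive set that defines the effector side, are not reported here. The members and all lists were chosen with earlier results of these data known.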

Additional observations from a re-analysis of the deposited data

Results flagged for a closer look

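In groups of 4 samples, a sample was picked out when its gap to the nearest other, as a part of the group's range, exceeded Dixon's 95% critical value. This held for 19 of 221 groups examined, where chance alone gives about 1 in 20. The CD8 share of 1 brain positive sample was 12.6% of kept cells. Among naive, memory and resident genes, Ly6c2 was at 162 CPM in lung negative sample 2, Itga1 at 89.3 CPM in bone negative sample 3 and Tox at 273 CPM in liver negative sample 4. The division gene Mki67 was at 229 CPM in brain negative sample 1 and at 273 CPM in liver negative sample 4. Klra9 was at 599 CPM in liver negative sample 3, 15 in bone negative sample 4 and 1.72 in brain negative sample 4. Its bone and brain values rest on very few UMIs.

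Genes higher in lung with the block gave 3 more: Rel at 283 CPM in lung negative sample 1, Skil at 11.2 CPM in bone negative sample 3 and Arhgap31 at 87.5 CPM in brain negative sample 4. The Skil value rests on very few UMIs. Genes better known from myeloid or other cells gave the rest. H2-Eb1 was at 2114 CPM in brain negative sample 2, 118 in bone negative sample 1 and 102 in lung negative sample 1. Gpx3 was at 561 CPM in brain negative sample 2 and 4.75 in liver negative sample 1, Mpo at 102 CPM in lung negative sample 3 and Cd177 at 187 CPM in liver negative sample 4.

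The biotin difference in lung, tested in edgeR against its mean in bone and brain, was larger for 7 genes. The log2 differences between lung and the other tissues were 4.57 for the tetraspanin Cd9, 3.99 for Nceh1, 3.39 for App, 3.29 for Sgk1, 3.09 for Abcg1, 2.64 for Ctsd and 2.28 for Cd44. In lung positive samples 23 of 47 members also carried macrophage RNA, and without such members, at 5 members a sample, 5 genes passed, 0 of them from these 7.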

How the results depend on the processing

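Results given only with the number block hold under that pairing alone: it gave 5, 21, 3 and 12 genes in bone, brain, liver and lung, 4, 1 and 462 by biotin in bone, brain and lung, 183 for the mean over tissues and 98 for lung against the others. The block without granulocyte-like members gave 8, 22, 8 and 15 by tissue. Without a filter on low counts the same comparisons gave 72, 147, 42 and 139 by tissue, 38, 76 and 770 by biotin, 200 for the mean, 153 for lung against the others and 816 for the number term. DESeq2 gave 3 in bone, 2 in liver, 1 and 1 by biotin in bone and brain, 67 for the mean and 22 for lung against the others. RLE scaling gave 2 in liver, Scrublet's top 5% left out 4 in liver, and Cd3e required 3 in brain and 3 in liver. Without granulocyte-like members 13 passed in brain, 4 in liver and 0 for the mean, which then held bone and brain alone. Without macrophage-carrying members and at 5 members a sample, 3 passed in brain, 4 in liver, 1 in lung, 34 by biotin in lung, 5 for lung against the others (none of the 7) and 0 for the mean, here over 4 tissues, and H2-Eb1 in brain turned to -1.81. At least 20 members a sample gave 10 in brain and 175 for the number term, which had 312 in negative samples alone. Numbers 1 and 2 alone gave 0 in brain, and numbers 3 and 4 alone 1 in brain and 3 in liver. The CD8 share of T cells in bone against other tissues was 15 percentage points with Cd3e required, 15.1 with Cd8b1 required and 16.1 thinned, and in lung -16.4 with Cd8b1 required and -17.7 thinned, none of which passed. By biotin it turned to -0.912 in bone with Cd8b1 required, to -3.79 in bone and -5.53 in lung without macrophage-carrying members and to -4.48 in lung when thinned. The effector side by biotin in lung was -0.796 without thinning. Exact permutation within numbers, the replicate block for shares, put the CD8 share of T cells at 15.4 in bone and -17.5 in lung, neither passing, at -0.936 and -0.0901 by biotin in bone and liver, and the effector side by biotin in bone at -0.522. Cell numbers in lung by edgeR gave -2.55, and -2.56 with the block. With each sample left out in turn, the CD8 share of T cells ranged from -3.30 to 3.09 by biotin in bone, 12.4 to 18.8 for bone and -19.1 to -16.0 for lung. The CD8 share ranged from -1.61 to 0.121 and -1.30 to 2.66 by biotin in bone and brain, and from -1.67 to 0.0597 and -0.189 to 1.10 for bone and brain against the others. The effector side ranged from -3.62 to 13 and -2.42 to 18.2 by biotin in bone and lung, and from -2.40 to 19.8, -2.81 to 20.6 and -17.7 to 2.91 for brain, liver and lung. Gene counts ranged over 0 to 3, 4 to 11, 0 to 4 and 0 to 2 by tissue, 0 to 2, 0 to 4 and 22 to 375 by biotin in bone, brain and lung, 0 to 67 for the mean, 2 to 15 for lung against the others and 351 to 470 for the number term. Lpl in bone by biotin was 3.61 without bone positive sample 4 and turned to -4.74 without bone positive sample 1. The cause of these changes was not tested. The rule of at least 2 samples a group left out some biotin tests. These were the tests of genes in liver at 10 members a sample and of the effector side in liver. Gene tests by biotin of any tissue at 20 members and in lung without granulocyte-like members were left out too. So were those in bone and lung without Scrublet's top 5% or with Cd3e required. Positive fractions with 25 to 74 members limit what the biotin tests can detect.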
